A study of Mus musculus with 14 samples.

Results

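Gene expression was measured by RNA-seq in mouse hepatocellular carcinoma cells that lack ACSS2 and either keep or lack ACLY, and the effect of ACLY loss was read as DKO1 against ACSS2 KO. These are 6 of the 14 libraries of the study, with 3 libraries of each group, and they were chosen by genotype alone. The other 8 libraries are 4 of WT and 4 of ACLY KO cells, in which the same loss of ACLY is compared with ACSS2 intact. Of 24946 genes in the table, 12743 had a mean of at least 10 normalized counts over the 6 libraries and were tested.

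The cells came from an Acly f/f liver tumor line in which diethylnitrosamine had induced the tumors. ACLY was removed with adenoviral Cre and a single-cell clone was taken. ACSS2 was removed with a LentiCRISPR v2 vector whose guide targets the first exon of Acss2, and single-cell clones were again taken. The cells labelled D42 Sg2-3 received that guide in the WT line and are the ACSS2 KO group, and those labelled D42C4 Sg2-2 received it in the ACLY KO clone and are DKO1. WT (D42V) and ACLY KO (D42C4V) cells received the vector with no guide. All cells were kept for 24 h in DMEM with 10% serum. Because each group with ACSS2 loss is 1 clone, genotype and clone cannot be told apart in this comparison. The libraries of a group are separate samples, but the sources used here do not state separate clones, and the experiment was not repeated independently, so p-values measure the spread between these samples.

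ATP-citrate lyase (ACLY) cleaves citrate exported from mitochondria into cytosolic acetyl-CoA, and acetyl-CoA synthetase 2 (ACSS2) makes acetyl-CoA from acetate in the cytosol and nucleus. This acetyl-CoA is the carbon source for fatty acids and sterols, and it is the substrate of histone acetyltransferases. When sterols in the endoplasmic reticulum run low, SCAP escorts the transcription factor SREBP2 out of it. SREBP2 then drives the genes of sterol synthesis and uptake.

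In the text, the values of a gene are normalized counts, given for ACSS2 KO replicates 1, 2 and 4 and then for DKO1 replicates 1, 3 and 4. Fold changes are on the log2(value + 1) scale ± the standard error of the limma fit, with Benjamini-Hochberg adjusted p-values. A gene rose or fell when its adjusted p was under 0.05. Levels of different genes were not compared, since the values are not per length. The raw depth is unknown, since the values are normalized. Their total lay between 23512975 and 26901953 in the 6 libraries, highest in DKO1 replicate 4. That library also stood apart by transcript length. The Spearman correlation of its deviations from the gene means with transcript length was −0.402, against 0.390 and 0.345 in DKO1 replicates 1 and 3, and it was −0.295, 0.245 and 0.0987 in ACSS2 KO replicates 1, 2 and 4. Each result was therefore recomputed without DKO1 replicate 4. The value without it is given for most results where a call or a direction changed or a value given moved by over 1.5 times. For Ppara, Mki67, Slc25a1 and Gja1 only the direction of the move is stated. A missing second value does not by itself mean that a gene was stable without that library.

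Acly itself (chr11:100476352-100528000 in GRCm38) had 5542, 5748 and 5762 in ACSS2 KO and 956, 949 and 931 in DKO1. The DKO1 libraries lay far below the ACSS2 KO libraries, by −2.59 ± 0.07 on the log2 scale (adjusted p = 4.9e-11). It was −2.59 in ACLY KO against WT, and the difference between these effects was 0.01 ± 0.09 (adjusted p = 0.97). Acss2 transcripts (chr2:155518043-155562743) were present in both groups, at 127, 135 and 135 in ACSS2 KO and 578, 571 and 455 in DKO1. They were higher in every DKO1 library, by 2.00 ± 0.10 (adjusted p = 4e-09), and means ± SD were 237 ± 11.5 in WT and 718 ± 56.7 in ACLY KO (n = 4 each). The table does not separate edited from unedited transcripts.

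The defining markers of other cell types bear on what the cultures held. No lymphocyte marker of 9 reached the filter, and their summed level was 1.43 to 3.72 in ACSS2 KO and 2.04 to 6.92 in DKO1, with Cd4, Ms4a1 and Klrb1c at 0 in all 6 libraries. For macrophages, 4 of 10 markers were tested, of which 2 rose and none fell. The sums were 1601 to 1714 and 1464 to 1791, and Adgre1, Clec4f and Marco were at 0. Most of the macrophage sum was Csf1r, at 1278 to 1338 in ACSS2 KO and 992 to 1413 in DKO1. Endothelial markers summed to 16.2 to 29.5 and 69.4 to 102.5 with 2 of 9 tested, both higher in DKO1, and Clec4g at 0. Fibroblast or stellate cell markers summed to 5309 to 6244 and 2135 to 2253 with 7 of 12 tested, of which 3 rose and 2 fell. Most of that sum was Acta2, which fell by 2.52 on the log2 scale, while the collagen Col3a1 rose by 3.06. All 9 cholangiocyte markers were tested, with sums of 43891 to 47086 and 46391 to 72436. Of 15 hepatocyte markers, 7 were tested and 5 had a mean under 1, and the sums, mostly Krt8 and Krt18, were 41068 to 44025 and 26601 to 45233. In bulk RNA, fewer cells of a type and less RNA per cell cannot be told apart.

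The expression of a large part of the transcriptome differed between DKO1 and ACSS2 KO. Past limits of 1.5 for the size of the log2 fold change and 0.01 for the adjusted p, 1490 genes passed (11.7% of those tested), of which 673 were higher in DKO1 (5.28%) and 817 lower (6.41%). At an adjusted p under 0.05 alone, 3304 genes rose (25.9%) and 3574 fell (28.0%), together 54.0%, and the libraries of the groups did not overlap for 58.4% of genes, with DKO1 higher for 28.0% and lower for 30.4%. Without DKO1 replicate 4, 632 genes (4.96%) and 814 genes (6.39%) passed the first limits, and 28.0% rose and 29.3% fell at 0.05. The median change over all genes was 0.00 and the counts of each list of genes are read against these shares.

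In ACSS2-proficient cells, for ACLY KO against WT, 1072 genes passed these limits (8.41%), 554 higher (4.35%) and 518 lower (4.06%). At 0.05 alone, 23.4% rose and 24.5% fell. These comparisons share no library, but DKO1 was derived from ACLY KO cells and ACSS2 KO from the WT line. Across the 12743 genes, which are not independent replicates, the fold changes of the comparisons had a Pearson r of 0.68 and a Spearman rho of 0.63. There were 748 genes that passed the limits in both with the same sign, which is 50.2% of the genes that passed in ACSS2-deficient cells and 69.8% of those that passed in ACSS2-proficient cells, and 13 genes passed with opposite signs. The difference between the effects was tested as an interaction. It passed for 572 genes (4.49%), of which 189 genes were more positive in ACSS2-deficient cells (1.48%) and 383 more negative (3.01%). At an adjusted p under 0.05 alone the difference was positive for 11.9% and negative for 15.0% of genes.

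**Figure D1:**
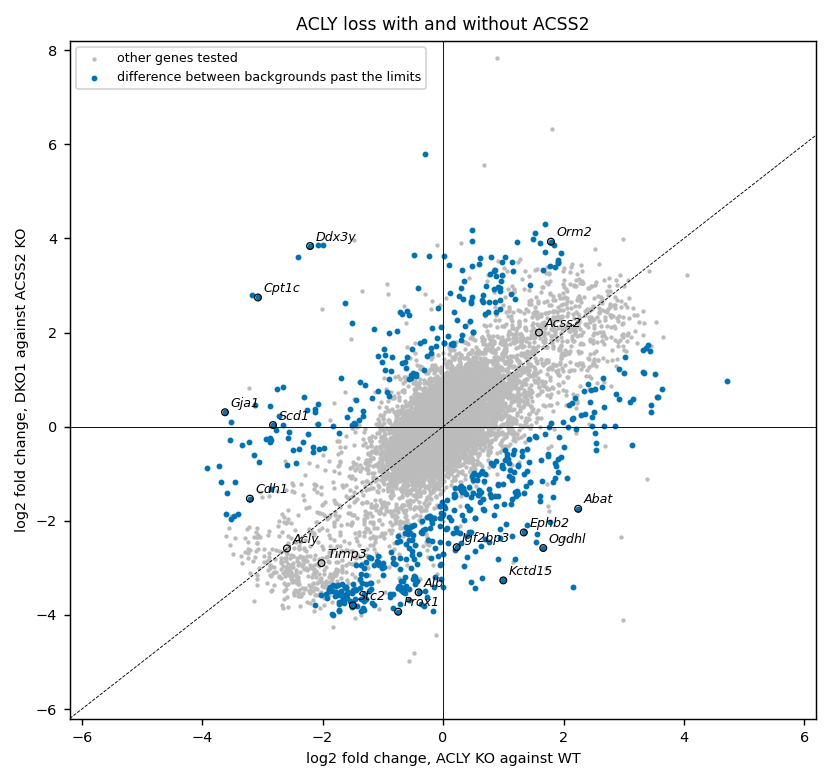
Log2 fold change of 12743 genes in DKO1 against ACSS2 KO (vertical axis) and in ACLY KO against WT (horizontal axis), with the line of equality dashed. Blue points are the 572 genes whose difference between the backgrounds passed limits of 1.5 (log2) and 0.01 (adjusted p); Acly lies on the line, Ddx3y and Cpt1c are positive on the vertical and negative on the horizontal axis, and Kctd15, Ogdhl and Abat the reverse.

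**Figure D2:**
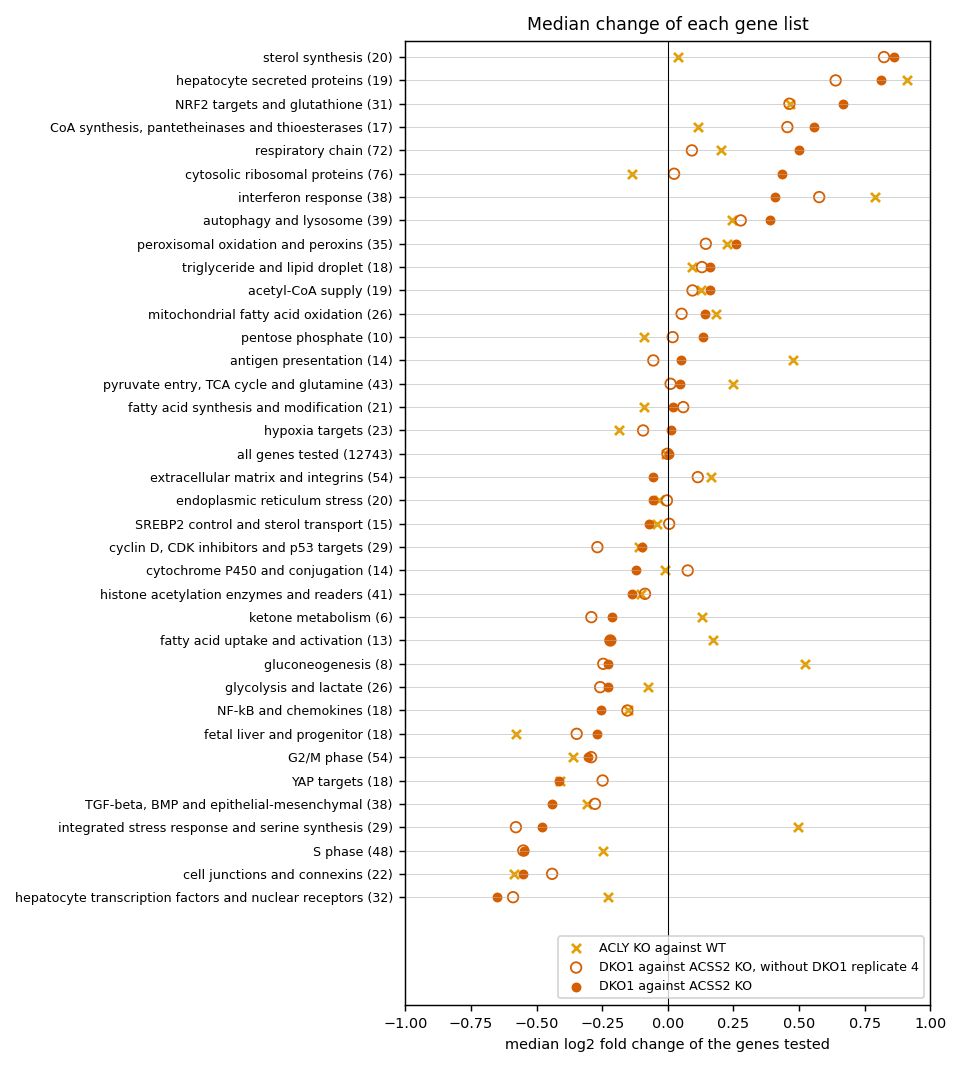
Median log2 fold change of each gene list, with the number of genes tested in parentheses, for DKO1 against ACSS2 KO (filled), the same without DKO1 replicate 4 (open) and ACLY KO against WT (crosses). The sterol synthesis list has the highest median, 0.86, and the list of hepatocyte transcription factors the lowest, −0.65; the Y-linked list, at 3.84, is not drawn.

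Sterol synthesis was the list with the highest median apart from the Y-linked genes. Of its 20 enzymes, 16 rose in DKO1 (80.0%) and 2 fell, with a median of 0.86, and without DKO1 replicate 4 the counts were again 16 and 2 with a median of 0.82. In ACLY KO against WT, 5 rose and 4 fell with a median of 0.04. The difference between the backgrounds was positive for 15 of the 20 and negative for none.

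The rises were spread along the pathway. Acat2, which joins acetyl-CoA units at the entry of the pathway, had 3188, 3064 and 3151 in ACSS2 KO and 7652, 7753 and 8585 in DKO1, a rise of 1.35 ± 0.08 (adjusted p = 1.3e-08). Mvd, which makes isopentenyl diphosphate, had 975, 973 and 947 in ACSS2 KO and 2981, 3053 and 4247 in DKO1, a rise of 1.81 ± 0.13 (adjusted p = 7.7e-08). In both, every DKO1 library was far above every ACSS2 KO library, and replicate 4 was the highest. Idi1, which isomerizes that product, had 4972, 4728 and 4694 in ACSS2 KO and 10229, 9969 and 10292 in DKO1, a rise of 1.08 ± 0.06 (adjusted p = 1.7e-08). Sqle, the squalene epoxidase and a rate-limiting enzyme, had 4767, 4941 and 4809.6 in ACSS2 KO and 11569.9, 11964 and 11409 in DKO1, a rise of 1.27 ± 0.06 (adjusted p = 1.3e-09). The DKO1 libraries of Sqle and Idi1 were close to each other, including replicate 4.

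Hmgcs1, the HMG-CoA synthase of the step after Acat2, rose less. It had 6478, 6373 and 6409 in ACSS2 KO and 8412, 8302 and 7134 in DKO1, a rise of 0.30 ± 0.07 (adjusted p = 0.0037). Its lowest DKO1 library, replicate 4, was still above ACSS2 KO. Late in the pathway, Sc5d rose by 0.86 ± 0.06 and Nsdhl by 1.17 ± 0.10.

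Tm7sf2, which reduces a double bond of the sterol nucleus and lies on chromosome 19, went the other way. It had 78.8, 71.6 and 64.3 in ACSS2 KO and 29.3, 32.2 and 27.6 in DKO1 and fell by 1.24 on the log2 scale (adjusted p = 0.0002), with no overlap between the groups.

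The means of the other genotypes stand beside these rises. For Sqle they were 6535 ± 54.6 in WT and 7712 ± 359 in ACLY KO (SD, n = 4 each), with a difference between backgrounds of 1.03 ± 0.07 (adjusted p = 7.2e-07). Idi1 had 7252 ± 406 in WT and 5295 ± 236 in ACLY KO, and its difference was 1.54 ± 0.08 (adjusted p = 6.8e-08). Idi1 lies on chromosome 13, whose 491 genes had a median of −0.41 in ACLY KO against WT and −0.09 in DKO1 against ACSS2 KO. The ACSS2 KO libraries were below the WT mean for both genes, and the DKO1 libraries were above it.

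**Figure D3:**
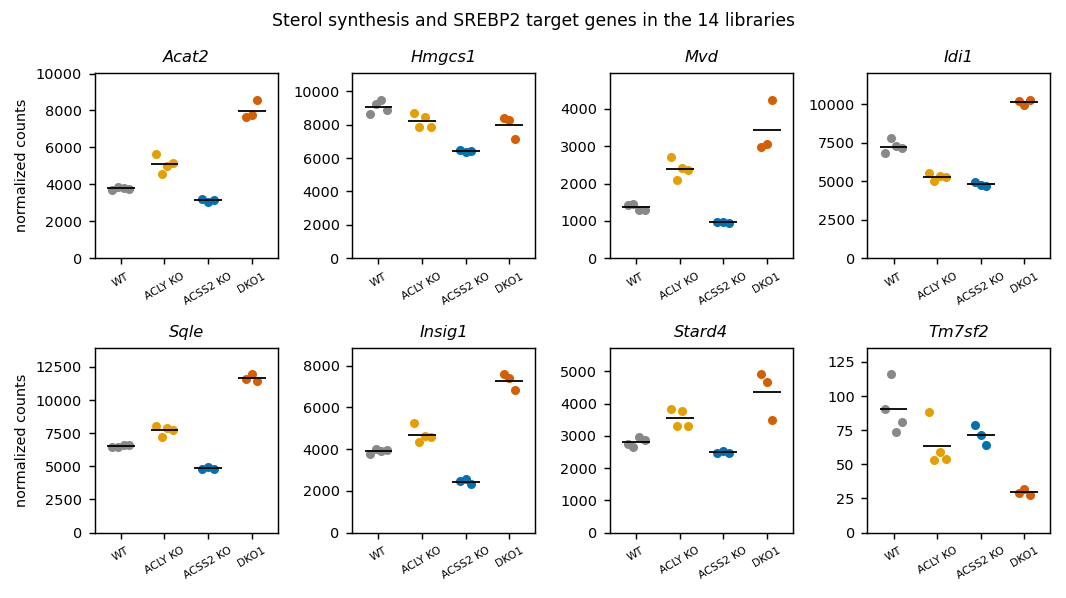
Normalized counts of 8 genes in the 14 libraries (1 point a library, bar at the group mean, axes from 0). For Acat2, Mvd, Idi1, Sqle and Insig1 the DKO1 libraries are above all others and the ACSS2 KO libraries are the lowest group, while Tm7sf2 is lowest in DKO1.

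The promoters of this list share a feature that the expression values did not enter. RefSeq promoter windows (GRCm38.p6, 250 bases before to 50 after a start) were held for 15 of the 20 genes, and 14 of the 15 (93.3%) contained the CCAAT box, read as CCAAT on either strand, the letters bound by the SREBP partner NF-Y. Among the 10149 tested genes with a window, 43.5% held it. The box was not particular to this list. It was in 66.7% of integrated stress response and 63.2% of S phase windows, lists with more falls than rises. It was in 46.2% of NRF2 and 35.5% of interferon response windows. The strict core of the sterol regulatory element, TCACNCCAC on either strand, was in 1 of the 15 and in 1.35% of all. The E-box CACGTG was in 3 of the 15 and in 11.7% of all. A match is a description of these letters only. The windows below are shown because these 4 genes rose and hold the letters (capitals, on either strand), and in Hmgcs1 the sterol regulatory element core is the longer run of capitals.
Hmgcs1, chr13:119690101-119690400, plus strand: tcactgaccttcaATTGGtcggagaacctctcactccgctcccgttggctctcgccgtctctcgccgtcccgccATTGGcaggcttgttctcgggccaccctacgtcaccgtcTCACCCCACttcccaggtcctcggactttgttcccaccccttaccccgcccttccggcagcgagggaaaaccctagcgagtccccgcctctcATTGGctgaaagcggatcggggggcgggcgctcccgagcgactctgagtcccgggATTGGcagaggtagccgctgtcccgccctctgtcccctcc
Mvd, chr8:122443373-122443672, minus strand: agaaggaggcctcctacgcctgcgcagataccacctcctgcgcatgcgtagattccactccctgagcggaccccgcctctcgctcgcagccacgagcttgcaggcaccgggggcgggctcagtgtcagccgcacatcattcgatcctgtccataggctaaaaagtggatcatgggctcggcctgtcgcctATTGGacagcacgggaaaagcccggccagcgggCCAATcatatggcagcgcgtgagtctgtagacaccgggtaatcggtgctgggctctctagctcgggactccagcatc
Idi1, chr13:8885356-8885655, plus strand: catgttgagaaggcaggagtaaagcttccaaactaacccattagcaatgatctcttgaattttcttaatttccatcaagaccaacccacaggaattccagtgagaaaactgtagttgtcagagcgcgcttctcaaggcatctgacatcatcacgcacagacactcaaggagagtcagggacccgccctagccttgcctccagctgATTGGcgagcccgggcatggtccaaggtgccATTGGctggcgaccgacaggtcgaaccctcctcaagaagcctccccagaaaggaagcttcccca
Nsdhl, chrX:72918271-72918570, plus strand: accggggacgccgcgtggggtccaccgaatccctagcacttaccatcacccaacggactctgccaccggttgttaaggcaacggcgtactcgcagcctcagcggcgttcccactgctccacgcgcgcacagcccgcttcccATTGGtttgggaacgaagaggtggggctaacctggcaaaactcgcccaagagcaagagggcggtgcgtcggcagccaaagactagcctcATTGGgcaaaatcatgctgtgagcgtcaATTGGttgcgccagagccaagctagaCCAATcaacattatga
Hmgcs1 and Nsdhl each held 4 CCAAT boxes in the window, and Mvd and Idi1 each held 2.

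The regulators and transporters around SREBP2 did not move as a block. Of 15 tested, 4 rose and 5 fell, with a median of −0.07 that was 0.01 without DKO1 replicate 4. Insig1, the SREBP target that retains SCAP in the endoplasmic reticulum, had 2454, 2552 and 2321 in ACSS2 KO and 7598, 7387 and 6809.8 in DKO1, a rise of 1.57 ± 0.08 (adjusted p = 3e-09). The sterol carrier Stard4 had 2467, 2529.7 and 2463 in ACSS2 KO and 4918, 4680.3 and 3483 in DKO1, a rise of 0.79 ± 0.11 (adjusted p = 5.9e-05). All DKO1 libraries of both genes were above ACSS2 KO, with replicate 4 the lowest of DKO1.

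The members that fell included genes of HDL binding and cholesterol storage. Scarb1, the HDL receptor, had 841, 863 and 841 in ACSS2 KO and 260.4, 275 and 230.1 in DKO1 and fell by 1.73 on the log2 scale (adjusted p = 6.7e-09). Soat1, which esterifies cholesterol for storage, had 171, 164 and 167 in ACSS2 KO and 35.6, 44.6 and 52.4 in DKO1 and fell by 1.91 (adjusted p = 1.9e-06). The groups were far apart for each. Both genes also fell in ACLY KO against WT, by 2.28 and 2.64. Srebf2 itself had 5910.4, 6348 and 6111 in ACSS2 KO and 6056, 6296 and 3904 in DKO1, and its change of −0.21 ± 0.17 did not pass (adjusted p = 0.31) and was 0.01 without DKO1 replicate 4 (adjusted p = 0.94), with overlapping groups.

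Among the genes that supply acetyl-CoA, 8 of 19 tested rose and 4 fell, with a median of 0.16, and without DKO1 replicate 4 the counts were 6 and 4 with a median of 0.09. Acss1 and Acss3, which also activate acetate or propionate, were below the filter. Crat, the carnitine acetyltransferase that moves acetyl groups as acetylcarnitine, had 1123, 1109 and 1077 in ACSS2 KO and 1724, 1684 and 1232 in DKO1, a rise of 0.47 ± 0.12 (adjusted p = 0.0041). Pdha1, the catalytic subunit of pyruvate dehydrogenase, had 6349, 6170.1 and 6187 in ACSS2 KO and 10014, 9857 and 8436 in DKO1, a rise of 0.59 ± 0.07 (adjusted p = 5.8e-06). Aacs, which makes acetoacetyl-CoA in the cytosol, rose by 0.55 ± 0.07 (adjusted p = 2e-05). Groups did not overlap for any of these, although replicate 4 was the lowest of DKO1 for Crat and Pdha1.

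Other steps of the route were lower or did not pass. Cs, the citrate synthase that makes the substrate of ACLY, had 12280.1, 12673 and 12867 in ACSS2 KO and 7712, 7463 and 5969 in DKO1, and fell by 0.85 on the log2 scale (adjusted p = 5e-06). The change of Cs in ACLY KO against WT was −0.06 and the difference between backgrounds was −0.78 ± 0.12 (adjusted p = 0.0004). Slc25a1, the mitochondrial citrate carrier, had 893, 869 and 841 in ACSS2 KO and 954, 912 and 1188 in DKO1, a change of 0.22 ± 0.10 that did not pass (adjusted p = 0.073). It passed without DKO1 replicate 3 (0.29, adjusted p = 0.0303), a fit that keeps replicate 4, its highest library. Without replicate 4 the change of Slc25a1 was smaller. Slc25a20, the carnitine carrier, changed by 0.05 ± 0.09 (adjusted p = 0.66) with overlapping groups, and by −0.03 without DKO1 replicate 4. Nudt7, a peroxisomal CoA hydrolase, had 282, 234 and 246 in ACSS2 KO and 96.4, 93 and 142 in DKO1, and fell by 1.22 (adjusted p = 5.3e-05).

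Genes of fatty acid synthesis split evenly, with 7 of 21 higher, 7 lower and a median of 0.02 (0.06 without DKO1 replicate 4). Fasn, the fatty acid synthase, had 13627, 15811 and 14229.9 in ACSS2 KO and 33151, 30733 and 12846 in DKO1. DKO1 replicates 1 and 3 were far above the ACSS2 KO libraries and replicate 4 was below them, so the change of 0.70 ± 0.31 did not pass (adjusted p = 0.072) and was 1.14 without replicate 4 (adjusted p = 0.00036). Acaca, the acetyl-CoA carboxylase, had 3127, 3522 and 3463 in ACSS2 KO and 4005, 3759.9 and 1441 in DKO1. Its change of −0.27 ± 0.32 did not pass (adjusted p = 0.5) and was 0.21 without replicate 4 (adjusted p = 0.4). When each library was corrected for transcript length, Fasn stood at 0.62 ± 0.35 (adjusted p = 0.152). The same correction put Acaca at −0.33 ± 0.36 (adjusted p = 0.456).

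Me1, the malic enzyme that supplies NADPH, had 7375, 7098 and 7194 in ACSS2 KO and 11106, 11006 and 11500.4 in DKO1, a rise of 0.63 ± 0.06 (adjusted p = 1e-06). Elovl6, the elongase of palmitate, had 2549, 2735 and 2612 in ACSS2 KO and 6428, 5993 and 4073 in DKO1, a rise of 1.04 ± 0.15 (adjusted p = 8.1e-05). Hsd17b12 and Hacd2, which act in the elongation cycle, rose by 0.85 ± 0.06 and 0.61 ± 0.06, while Hacd3 fell by 0.41 on the log2 scale. Srebf1 fell by 0.35 (adjusted p = 0.0011), with every DKO1 library below every ACSS2 KO library.

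Scd1, the stearoyl-CoA desaturase, was at 22.3, 18.6 and 17.8 in ACSS2 KO and 22.4, 15.5 and 22.8 in DKO1, with no change that passed (0.04 ± 0.17, adjusted p = 0.88, and −0.06 without DKO1 replicate 4, adjusted p = 0.82). In the other background it went from 147 ± 15.4 in WT to 19.8 ± 1.5 in ACLY KO (SD, n = 4 each). Its difference between backgrounds was 2.86 ± 0.23 (adjusted p = 1.7e-06). The ACSS2 KO libraries were near the ACLY KO mean, and all 3 genotypes without ACLY or ACSS2 lay below WT.

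Fatty acid uptake and activation gave 5 higher and 6 lower of 13 tested, with a median of −0.22. Slc27a4, a fatty acid transport protein, rose by 0.74 ± 0.08 (adjusted p = 7.2e-06). Vldlr, on chromosome 19, had 3813, 3913 and 4949.9 in ACSS2 KO and 1892, 1914 and 1346 in DKO1 and fell by 1.31 on the log2 scale (adjusted p = 4e-06). The fatty acid binding protein Fabp5 fell by 0.93 (adjusted p = 2.5e-06). Acsf3, the mitochondrial malonyl-CoA synthetase, had 391, 328 and 392 in ACSS2 KO and 89.7, 90.4 and 96.7 in DKO1, and fell by 1.99 (adjusted p = 9.9e-09). It changed by 0.34 in ACLY KO against WT, so its difference was −2.33 ± 0.15 (adjusted p = 2.2e-07). Acsf2 had 318, 307 and 336 in ACSS2 KO and 47.4, 41.1 and 42.6 in DKO1, and fell by 2.85 (adjusted p = 9.4e-10).

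Mitochondrial fatty acid oxidation was mixed. Of 26 genes, 8 rose and 4 fell, with a median of 0.14 that was 0.05 without DKO1 replicate 4. The counts in ACLY KO against WT were 11 higher and 6 lower, with a median of 0.18. Acadm, the medium-chain dehydrogenase, had 1713, 1623 and 1703 in ACSS2 KO and 3093, 3230.3 and 4088 in DKO1, a rise of 1.04 ± 0.12 (adjusted p = 8.7e-06). Hadh, the short-chain hydroxyacyl-CoA dehydrogenase, had 1295, 1164 and 1213 in ACSS2 KO and 2183, 2372 and 2721 in DKO1, a rise of 0.98 ± 0.08 (adjusted p = 2.8e-07). Cpt2, the inner membrane carnitine palmitoyltransferase, rose by 0.47 ± 0.07. Cpt1a, the rate-limiting outer membrane enzyme, on chromosome 19, had 2477, 2709 and 2681 in ACSS2 KO and 1743, 1749 and 1111 in DKO1 and fell by 0.80 on the log2 scale (adjusted p = 0.00086). The brain-type isoform Cpt1c had 8.97, 9.38 and 9.34 in ACSS2 KO and 87.5, 55.2 and 63.9 in DKO1, a rise of 2.75 ± 0.29 (adjusted p = 3.4e-06). It went the opposite way in the other background, from 67.6 ± 8.75 in WT to 7.55 ± 3.18 in ACLY KO (SD, n = 4 each), and the difference was 5.82 ± 0.38 (adjusted p = 2.9e-07). Ppara, the nuclear receptor of this program, had 33.5, 50.05 and 35.5 in ACSS2 KO and 78.5, 51.2 and 32.5 in DKO1, a change of 0.37 ± 0.32 that did not pass (adjusted p = 0.34). Replicate 4 was its lowest DKO1 library, and the change was larger without it.

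In the peroxisome, 16 of 35 genes rose and 6 fell, with a median of 0.26 (0.14 without DKO1 replicate 4). With ACSS2 intact, 17 rose and 3 fell in ACLY KO against WT, with a median of 0.22. Abcd3, which carries acyl-CoA into peroxisomes, had 2869, 2780.2 and 2965 in ACSS2 KO and 6276, 6092 and 4296 in DKO1, a rise of 0.93 ± 0.12 (adjusted p = 2.3e-05). The phytanic acid hydroxylase Phyh had 716, 639 and 717 in ACSS2 KO and 1091, 1159.5 and 1376 in DKO1, a rise of 0.80 ± 0.10 (adjusted p = 1.4e-05). Amacr, which racemizes branched acyl-CoA, rose by 0.89 ± 0.14 and the peroxin Pex10 by 1.02 ± 0.19. Ehhadh, the bifunctional enzyme of peroxisomal oxidation, was at 19.3, 16.4 and 15.7 in ACSS2 KO and 4.07, 3.87 and 1.15 in DKO1, and fell by 2.27 on the log2 scale (adjusted p = 0.0035).

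The list of CoA synthesis, pantetheinases and thioesterases had 10 higher and 4 lower of 17, with a median of 0.56, against 3 higher and 2 lower in ACLY KO against WT. Vnn1, a pantetheinase that releases pantothenate, had 3171, 3135 and 3206 in ACSS2 KO and 6598, 6657 and 5754 in DKO1, a rise of 1.0 ± 0.07 (adjusted p = 7.1e-08). The mitochondrial thioesterase Acot9 had 2429, 2362 and 2328 in ACSS2 KO and 4723, 4785 and 5644 in DKO1, a rise of 1.08 ± 0.08 (adjusted p = 2.3e-07). For both genes the difference between backgrounds passed, at 1.12 ± 0.09 and 0.97 ± 0.11. The pantothenate kinase Pank2 rose by 0.56 ± 0.06 and the related Pank4 by 0.58 ± 0.06. Vnn3 went the other way, with 78.1, 75.6 and 85.5 in ACSS2 KO and 17.3, 18.3 and 16.2 in DKO1, and fell by 2.14 on the log2 scale (adjusted p = 3e-06).

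Triglyceride and lipid droplet genes gave 8 higher and 2 lower of 18, with a median of 0.16. Mttp, which loads lipid onto apolipoprotein B, had 585, 525 and 485 in ACSS2 KO and 2144, 2151 and 2221 in DKO1, a rise of 2.03 ± 0.08 (adjusted p = 4.4e-10). The droplet coat protein Plin4 had 149.9, 133 and 149.7 in ACSS2 KO and 742, 777 and 412 in DKO1, a rise of 2.10 ± 0.21 (adjusted p = 2.1e-06). Lpin1, a phosphatidate phosphatase, rose by 1.40 ± 0.16, and Gpam, the first acyltransferase, on chromosome 19, fell by 0.88 on the log2 scale. Mttp, Plin4 and Lpin1 also rose in ACLY KO against WT, by 1.46, 1.69 and 1.11.

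Of 26 glycolysis and lactate genes, 12 fell and 8 rose, with a median of −0.23, and without DKO1 replicate 4 the counts were 15 and 6. Slc2a1, the glucose transporter GLUT1, had 6030.0, 5830.3 and 5721 in ACSS2 KO and 2573, 2679.7 and 2848 in DKO1, and fell by 1.12 on the log2 scale (adjusted p = 9e-09), while the hepatic transporter Slc2a2 (GLUT2) had 79.3, 73.4 and 70.2 in ACSS2 KO and 129, 133 and 133 in DKO1, a rise of 0.82 ± 0.08 (adjusted p = 2.4e-06). Slc16a3, the lactate exporter MCT4, had 501, 566 and 549 in ACSS2 KO and 125, 110.1 and 127 in DKO1, and fell by 2.15 (adjusted p = 1.1e-09). It fell by 3.56 in ACLY KO against WT, from 1633 ± 92.8 to 138 ± 11.8. Slc16a1, the carrier MCT1, fell by 0.45 (adjusted p = 0.00045), a call lost with the transcript length correction (−0.24, adjusted p = 0.283). Hk2 fell by 0.58 and Pfkp by 0.92, whereas Pkm rose by 0.25 ± 0.09 (adjusted p = 0.028), a call that did not hold without DKO1 replicate 4 (0.16, adjusted p = 0.079), nor without ACSS2 KO replicate 2 (0.25, adjusted p = 0.0678) or 4 (0.24, adjusted p = 0.0831).

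Enzymes of the oxidative pentose phosphate branch had calls in both directions. G6pdx, the first and committed step, had 1493, 1523 and 1648 in ACSS2 KO and 596, 579 and 480.1 in DKO1, and fell by 1.5 on the log2 scale (adjusted p = 9e-08). Pgd, the third enzyme of the same branch, had 2318, 2271 and 2247 in ACSS2 KO and 5240.1, 5545 and 7299 in DKO1, a rise of 1.39 ± 0.11 (adjusted p = 1.9e-07). The groups were widely apart for both, and the differences between backgrounds were −1.24 ± 0.14 and 1.28 ± 0.14. Over the 10 genes of the list 2 rose and 3 fell.

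Pyruvate entry, the TCA cycle and glutamine gave 13 higher and 8 lower of 43, with a median of 0.05 (0.01 without DKO1 replicate 4). Compared with ACLY KO against WT, where 19 rose and 5 fell, the difference between backgrounds was negative for 15 genes and positive for 3. The pyruvate dehydrogenase kinases split, with Pdk1 at 631, 654 and 596 in ACSS2 KO and 1122, 1145 and 1133 in DKO1, a rise of 0.85 ± 0.07 (adjusted p = 2.3e-07). Pdk3 had 959.6, 871 and 923 in ACSS2 KO and 283, 317 and 344 in DKO1, and fell by 1.54 on the log2 scale (adjusted p = 1.9e-08). Pdk4 did not pass (0.20 ± 0.09, adjusted p = 0.085) and passed without DKO1 replicate 4 (0.27, adjusted p = 0.017). Glul, the glutamine synthetase, had 1994, 1858 and 2075 in ACSS2 KO and 730.2, 739 and 656 in DKO1, and fell by 1.48 (adjusted p = 5.2e-08), and the aspartate aminotransferase Got1, on chromosome 19, fell by 0.97.

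The counts and medians of the respiratory chain and ribosomal protein lists depended on DKO1 replicate 4. Of 72 respiratory chain genes, 14 rose and 1 fell with a median of 0.50, but without that library 10 rose and 4 fell with a median of 0.09. With all libraries kept and each corrected for transcript length, the median was 0.37. Ndufb9 of complex I had 2396, 2061 and 2314 in ACSS2 KO and 3763, 4278 and 10719.8 in DKO1, so replicate 4 was far above the other DKO1 libraries, and its rise was 1.31 ± 0.30 with it and 0.83 without it. Of 76 cytosolic ribosomal protein genes, 9 rose and none fell with a median of 0.43, and without it 4 rose and 3 fell with a median of 0.02. The length correction with all libraries kept gave 0.32 for this list.

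Genes of the integrated stress response and serine synthesis were more often lower than higher in DKO1. This program, run by ATF4, supplies amino acids, one-carbon units and cystine under stress. Of 29 genes, 15 fell (51.7%) and 3 rose, with a median of −0.48, and without DKO1 replicate 4 the counts were 17 and 3 with −0.58. In ACLY KO against WT, 15 rose and 3 fell with a median of 0.50, and the difference between backgrounds was negative for 17 genes and positive for none.

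Stc2, a secreted glycoprotein of stressed cells, had 713, 675 and 859.8 in ACSS2 KO and 57.1, 44.7 and 57.5 in DKO1, and fell by 3.80 on the log2 scale (adjusted p = 3.7e-10). The mitochondrial folate enzyme Aldh1l2 had 264, 247 and 502 in ACSS2 KO and 32.5, 30.9 and 31.1 in DKO1, and fell by 3.30 (adjusted p = 1.3e-07). Cth, which makes cysteine from cystathionine, had 199, 153 and 261 in ACSS2 KO and 30.6, 31.1 and 40.5 in DKO1, and fell by 2.53 (adjusted p = 4e-07). ACSS2 KO replicate 4 was the highest of its group in these 3 genes, and the groups were far apart with or without it. Slc7a11, the cystine importer xCT, had 745, 693 and 1084 in ACSS2 KO and 312, 282 and 278 in DKO1, and fell by 1.5 (adjusted p = 1.1e-06). Psat1, the serine pathway transaminase, on chromosome 19, had 21737, 20449 and 22884 in ACSS2 KO and 12743, 13168 and 13261 in DKO1, and fell by 0.73 (adjusted p = 4.1e-07).

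Atf4, which encodes the transcription factor itself, had no call. It had 17273, 15754 and 17359 in ACSS2 KO and 16382, 16963 and 23722 in DKO1, and its change of 0.16 ± 0.13 did not pass (adjusted p = 0.32) and was −0.01 without DKO1 replicate 4 (adjusted p = 0.94). Asns, the asparagine synthetase, changed by 0.22 ± 0.11 (adjusted p = 0.1), which passed at 0.30 without ACSS2 KO replicate 4 (adjusted p = 0.0447) or DKO1 replicate 1 (adjusted p = 0.0371). Ddit3 changed by −0.40 ± 0.16 (adjusted p = 0.056), which passed without DKO1 replicate 4 (−0.59, adjusted p = 0.0025) and without ACSS2 KO replicate 2 (−0.53, adjusted p = 0.0232). Phgdh, the first enzyme of serine synthesis, rose by 0.83 ± 0.17 (adjusted p = 0.0011), with 17643, 16667 and 17668 in ACSS2 KO and 24294, 27240.2 and 44184 in DKO1.

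The other genotypes were not alike for these genes. Stc2 was at 176 ± 21 in WT and 61.5 ± 6.32 in ACLY KO (SD, n = 4 each), and its ACSS2 KO libraries were the highest of all. Slc7a11 rose from 364 ± 23.9 in WT to 632 ± 44.1 in ACLY KO, and Cth from 76.9 ± 5.15 to 122 ± 28.8. The difference between backgrounds was −2.30 ± 0.19 for Stc2, −2.30 ± 0.18 for Slc7a11 and −3.16 ± 0.28 for Cth, all with an adjusted p under 0.01.

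**Figure D4:**
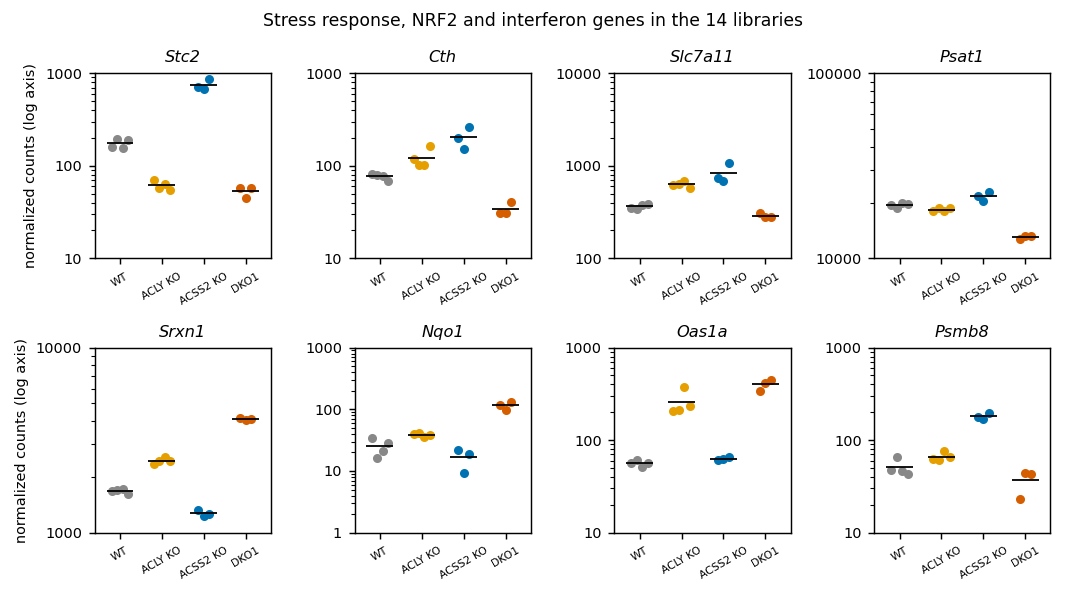
Normalized counts of 8 genes in the 14 libraries on log axes (1 point a library, bar at the group mean). By group mean, Stc2, Cth, Slc7a11 and Psmb8 are highest in ACSS2 KO and lowest in DKO1, Psat1 is lowest in DKO1, Srxn1 and Nqo1 are highest in DKO1, and Oas1a is high in both groups without ACLY.

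Targets of NRF2, the transcription factor of the oxidant response, were mostly higher. Of 31 tested, 20 rose (64.5%) and 4 fell, with a median of 0.67 that was 0.46 without DKO1 replicate 4. In ACLY KO against WT, 16 rose and 4 fell with a median of 0.47. Srxn1, the sulfiredoxin, had 1329.9, 1231 and 1259.7 in ACSS2 KO and 4164, 4048 and 4122 in DKO1, a rise of 1.69 ± 0.06 (adjusted p = 1.4e-10). Nqo1, the quinone reductase, had 21.5, 9.25 and 18.8 in ACSS2 KO and 118, 97.6 and 131 in DKO1, a rise of 2.80 ± 0.30 (adjusted p = 4.6e-06). The DKO1 libraries of Srxn1 were close to each other and far above ACSS2 KO, and those of Nqo1 were low but did not overlap those of ACSS2 KO.

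Gclm and Gss of glutathione synthesis rose. Gclm, the modifier subunit of glutamate-cysteine ligase, had 2639, 2564 and 2501 in ACSS2 KO and 5037, 4895 and 4683 in DKO1, a rise of 0.92 ± 0.06 (adjusted p = 3.3e-08). Gss, the glutathione synthetase, had 580.3, 618 and 599.6 in ACSS2 KO and 1291, 1487 and 2121 in DKO1, a rise of 1.41 ± 0.14 (adjusted p = 2.2e-06). Hmox1, the heme oxygenase, rose by 0.70 ± 0.09, and the epoxide hydrolase Ephx1 by 1.0 ± 0.07. Slc7a11, also counted in this list, was the largest fall. The antioxidant response element core, TGACNNNGC on either strand, was in the windows of 8 of 26 members with one (30.8%), Srxn1 and Gclm among them, and in 17.0% of all. The core was not particular to this list. It was in 33.3% of integrated stress response windows, a list with more falls than rises. It was in 26.7% of sterol synthesis, 19.4% of interferon response and 18.4% of S phase windows. Srxn1 and Gss lie on chromosome 2, whose genes had a median change of 0.33.

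Genes of DNA replication were mostly lower. Of 48 S phase genes, 30 fell (62.5%) and 1 rose, with a median of −0.55, and without DKO1 replicate 4 the counts were 37 and 1. In ACLY KO against WT, 21 fell and none rose with a median of −0.25, and the difference between backgrounds was negative for 14 genes and positive for 1. Mcm2 of the replicative helicase had 9187, 9160.2 and 9229 in ACSS2 KO and 4498, 4696 and 4052 in DKO1, and fell by 1.06 on the log2 scale (adjusted p = 4.7e-08). Its partner Mcm3 had 10189, 10321 and 10097 in ACSS2 KO and 5762, 5795 and 5133 in DKO1, and fell by 0.88 (adjusted p = 5.5e-08). The primase subunit Prim1 fell by 0.94, Mcm4 by 0.77 and Mcm7 by 0.68. All DKO1 libraries of these genes were below all ACSS2 KO libraries.

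Mitotic genes were also lower more often than higher. Of 54 G2/M genes, 30 fell (55.6%) and 3 rose, with a median of −0.30, and 30 fell and none rose in ACLY KO against WT. Incenp of the chromosomal passenger complex, on chromosome 19, had 5069.9, 5175 and 5146 in ACSS2 KO and 2304, 2395 and 2036 in DKO1, and fell by 1.20 (adjusted p = 1.4e-08). The spindle checkpoint kinase Ttk fell by 0.63 and the kinetochore protein Ndc80 by 0.74. Mki67 had 12647, 15376 and 14998 in ACSS2 KO and 12026, 10909.5 and 6006 in DKO1. Its change of −0.63 ± 0.25 did not pass (adjusted p = 0.052). It passed without DKO1 replicate 1 (−0.82, adjusted p = 0.0203) or 3 (−0.75, adjusted p = 0.0439), fits that keep replicate 4, its lowest library. Without replicate 4 the fall of Mki67 was smaller. Of the D cyclins, Ccnd1 had 15746, 15636 and 15132 in ACSS2 KO and 11201, 11397 and 10257 in DKO1, and fell by 0.50 (adjusted p = 2.1e-05), and Ccnd2 had 10835, 11656 and 12403 in ACSS2 KO and 5536, 5506 and 4717 in DKO1, and fell by 1.15 (adjusted p = 4.5e-07). Cdkn1a, the inhibitor p21, rose by 0.41 ± 0.10 (adjusted p = 0.004), and Cdkn2a did not pass (0.09 ± 0.30, adjusted p = 0.82). Cdkn2a was −0.37 without DKO1 replicate 4 (adjusted p = 0.073), and −0.38 (adjusted p = 0.0322) when the length correction was added.

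Interferon response genes had more rises than falls. Of 38 tested, 17 rose (44.7%) and 2 fell, with a median of 0.41, and without DKO1 replicate 4 the counts were 19 and 1 with a median of 0.58. More rose in ACLY KO against WT, 28 of 38 with a median of 0.79, and the difference between backgrounds was negative for 8 and positive for 1. Oas1a, an oligoadenylate synthetase that senses double-stranded RNA, had 61, 63 and 65.6 in ACSS2 KO and 341, 413 and 451 in DKO1, a rise of 2.64 ± 0.19 (adjusted p = 1.3e-07). The ubiquitin-like protein Isg15 had 101, 82.8 and 86.3 in ACSS2 KO and 266, 393 and 551 in DKO1, a rise of 2.09 ± 0.25 (adjusted p = 1.3e-05). Irf7, the interferon-induced regulator, had 22.8, 22.6 and 21 in ACSS2 KO and 96.9, 119 and 49.6 in DKO1, a rise of 1.86 ± 0.39 (adjusted p = 0.0012). DKO1 replicate 4 was the highest library for Oas1a and Isg15 and the lowest of DKO1 for Irf7. Ifit3, Gbp2 and Cmpk2 rose by 0.89 ± 0.09, 1.55 ± 0.16 and 1.80 ± 0.18.

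The core of the interferon-stimulated response element, TTTCNNTTTC on either strand, was in the windows of 16 of the 31 list members with one (51.6%), against 3.56% of all 10149 genes with a window. The windows below belong to the members with the largest rises named here, with the core in capitals on either strand.
Isg15, chr4:156200769-156201068, minus strand: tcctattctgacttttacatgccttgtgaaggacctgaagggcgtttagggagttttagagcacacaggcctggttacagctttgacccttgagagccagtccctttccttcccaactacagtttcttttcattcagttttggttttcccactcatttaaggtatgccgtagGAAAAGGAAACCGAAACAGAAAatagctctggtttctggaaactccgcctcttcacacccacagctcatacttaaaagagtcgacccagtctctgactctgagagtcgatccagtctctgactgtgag
Oas1a, chr5:120907476-120907775, minus strand: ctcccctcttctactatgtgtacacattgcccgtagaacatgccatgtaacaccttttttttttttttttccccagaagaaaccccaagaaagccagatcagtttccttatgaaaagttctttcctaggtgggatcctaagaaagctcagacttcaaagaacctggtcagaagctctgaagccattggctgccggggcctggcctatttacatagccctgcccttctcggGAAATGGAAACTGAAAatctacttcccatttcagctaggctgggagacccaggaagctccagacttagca
Isg15 held 3 overlapping matches and Oas1a held 2.

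Antigen presentation genes had few calls. Of 14 tested, 3 rose and 4 fell with a median of 0.05, and without DKO1 replicate 4 3 rose and 6 fell with a median of −0.06. In contrast, 8 rose and 1 fell in ACLY KO against WT, and the difference between backgrounds was negative for 7 and positive for none. Psmb8, an immunoproteasome subunit, had 176, 171 and 197 in ACSS2 KO and 22.9, 44.6 and 42.7 in DKO1, and fell by 2.33 on the log2 scale (adjusted p = 1.9e-06). Tap1, the peptide transporter, had 145, 136 and 146 in ACSS2 KO and 61.7, 66 and 78.2 in DKO1, and fell by 1.05 (adjusted p = 7.3e-05). Tap1 rose by 1.10 in ACLY KO against WT, and its difference was −2.15 ± 0.20 (adjusted p = 7.2e-06). The light chain B2m rose by 0.73 ± 0.08, H2-Q4 fell by 0.96, and the heavy chain H2-K1 did not pass (−0.07 ± 0.17, adjusted p = 0.74) and fell without DKO1 replicate 4 (−0.30, adjusted p = 0.034). Among NF-kB targets and chemokines, 9 of 18 fell and 4 rose, led by Cxcl16, which had 300.0, 300.1 and 291 in ACSS2 KO and 34.5, 35.6 and 25.6 in DKO1, and fell by 3.19 (adjusted p = 1.1e-08).

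Genes of hepatocyte secreted proteins had calls in both directions. Only 19 of 59 genes of hepatocyte secreted proteins reached the filter, and of these 11 rose and 6 fell, with a median of 0.81, and without DKO1 replicate 4 the counts were 9 and 6 with a median of 0.64. Alb, the albumin gene, was low in these cells, at 129, 137 and 135 in ACSS2 KO and 7.10, 16.4 and 10.5 in DKO1, and fell by 3.52 on the log2 scale (adjusted p = 3.9e-08). Orm2, an acute phase orosomucoid, had 8.18, 8.54 and 9.38 in ACSS2 KO and 117, 131 and 206 in DKO1, a rise of 3.93 ± 0.21 (adjusted p = 6.7e-09). Apob, the apolipoprotein of VLDL, had 25.2, 30.6 and 34.6 in ACSS2 KO and 387, 366 and 94.3 in DKO1, a rise of 2.95 ± 0.47 (adjusted p = 0.00015), smallest in replicate 4. The carrier Rbp4, on chromosome 19, fell by 2.78. The tyrosine aminotransferase Tat, listed with gluconeogenesis, had 18.6, 30.8 and 30.3 in ACSS2 KO and 385, 336 and 276 in DKO1, a rise of 3.62 ± 0.23 (adjusted p = 2.9e-08). Afp, the fetal albumin, had 34.2, 38.4 and 30.3 in ACSS2 KO and 129.9, 157 and 343 in DKO1, a rise of 2.45 ± 0.34 (adjusted p = 4.7e-05).

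Among hepatocyte transcription factors and nuclear receptors, 21 of 32 fell (65.6%) and 5 rose, with a median of −0.65. In ACLY KO against WT, 14 fell and 8 rose with a median of −0.23, and the difference was negative for 14 and positive for 2. Prox1, a factor of liver development, had 183, 226 and 216 in ACSS2 KO and 18.6, 8.77 and 12.4 in DKO1, and fell by 3.93 (adjusted p = 2.3e-08). The pioneer factor Foxa2 had 1329, 1201 and 1206 in ACSS2 KO and 299, 297 and 429.5 in DKO1, and fell by 1.88 (adjusted p = 1.9e-07). Gata6 had 1182, 1195 and 1152 in ACSS2 KO and 467, 435 and 469.9 in DKO1, and fell by 1.36 (adjusted p = 8.3e-09). None of the groups overlapped in these genes.

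The orphan receptor Rora, which acts in the circadian clock and lipid metabolism, also fell. It had 241, 283 and 256 in ACSS2 KO and 48.1, 47.8 and 49.1 in DKO1, and fell by 2.40 on the log2 scale (adjusted p = 3.6e-08). Hnf4a, the central hepatocyte regulator, was low at 43.8, 30.7 and 44.8 in ACSS2 KO and 25.6, 16.4 and 25.4 in DKO1, and fell by 0.81 (adjusted p = 0.02). That call was lost without ACSS2 KO replicate 1 (−0.73, adjusted p = 0.0645) or 4 (−0.71, adjusted p = 0.0711) or DKO1 replicate 3 (−0.60, adjusted p = 0.0813). Hnf4a fell from 172 ± 21.9 in WT to 28.7 ± 8.95 in ACLY KO (SD, n = 4 each), and its difference was positive, 1.78 ± 0.35 (adjusted p = 0.0021).

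The fetal liver and progenitor list had 8 lower and 3 higher of 18. Its largest fall, in the mRNA-binding protein Igf2bp3, was seen with ACSS2 absent, where it had 1708, 1663 and 1602 in ACSS2 KO and 249, 288 and 306 in DKO1, and fell by 2.56 on the log2 scale (adjusted p = 9.4e-11). It was at 479 ± 15.4 in WT and 561 ± 32.2 in ACLY KO (SD, n = 4 each), and the difference was −2.79 ± 0.11 (adjusted p = 5.1e-09). Drug metabolism genes, of which 14 of 32 were tested, gave 6 higher and 5 lower. The flavin monooxygenase Fmo2 had 253, 253 and 316 in ACSS2 KO and 15.4, 19.5 and 22.7 in DKO1, and fell by 3.78 (adjusted p = 5.3e-09). The cytochrome Cyp3a13 had 26.6, 51.9 and 23.1 in ACSS2 KO and 297, 305 and 388 in DKO1, a rise of 3.33 ± 0.24 (adjusted p = 9.1e-08).

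Genes of cell junctions were mostly lower. Of 22 junction genes, 14 fell (63.6%) and 3 rose, with a median of −0.55 (−0.44 without DKO1 replicate 4). The list was also lower in ACLY KO against WT, where 16 fell and 1 rose with a median of −0.59. The desmoglein Dsg2 had 5997, 6747 and 6722 in ACSS2 KO and 1707, 1759 and 1328 in DKO1, and fell by 2.03 on the log2 scale (adjusted p = 2.9e-07). The connexin 26 gene Gjb2 had 332, 300.3 and 417 in ACSS2 KO and 39.9, 26 and 52.6 in DKO1, and fell by 3.16 (adjusted p = 6.3e-07). The pore-forming claudin Cldn2 went the other way, with 512, 514 and 508 in ACSS2 KO and 2021, 2073 and 1777 in DKO1, a rise of 1.93 ± 0.09 (adjusted p = 1.5e-09).

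The connexin 43 gene Gja1 was at 51.1, 50.7 and 57.8 in ACSS2 KO and 69.5, 50.5 and 81.6 in DKO1, with overlapping groups and no change that passed (0.31 ± 0.17, adjusted p = 0.14). It passed without DKO1 replicate 3 (0.50, adjusted p = 0.0156), a fit that keeps replicate 4, its highest DKO1 library. Without replicate 4 the change was smaller. In the other background Gja1 went from 685 ± 69.8 in WT to 54.9 ± 7.37 in ACLY KO (SD, n = 4 each). The difference between backgrounds was 3.93 ± 0.22 (adjusted p = 8.2e-08). Cdh1, the E-cadherin gene, was also lower in all genotypes than in WT, with 179, 179.7 and 213 in ACSS2 KO and 64.4, 63.5 and 67.9 in DKO1, a fall of 1.53 on the log2 scale (adjusted p = 2.4e-07), and a fall from 547 ± 12.6 in WT to 58.7 ± 9.05 in ACLY KO. Its difference was 1.68 ± 0.16 (adjusted p = 7.1e-06). In both genes the ACSS2 KO libraries were far below the WT mean.

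The TGF-beta, BMP and epithelial-mesenchymal list had 20 lower and 7 higher of 38, with a median of −0.44, and without DKO1 replicate 4 the counts were 17 and 8 with a median of −0.28. Bmp2, a ligand, had 158, 141 and 156 in ACSS2 KO and 14.8, 6.58 and 13.5 in DKO1, and fell by 3.66 on the log2 scale (adjusted p = 1.4e-07). The BMP target Id1 had 2332, 2106 and 2192 in ACSS2 KO and 318, 354 and 691 in DKO1, and fell by 2.37 (adjusted p = 4.2e-06), and Id3 had 1567, 1362 and 1408 in ACSS2 KO and 153, 200.1 and 316 in DKO1, and fell by 2.75 (adjusted p = 2.7e-07). For all 3 genes the highest DKO1 library was far below the lowest ACSS2 KO library. Tgfb2 fell by 0.99. Mesenchymal genes split. Twist1 had 301, 219.8 and 252 in ACSS2 KO and 30.8, 25.1 and 26.8 in DKO1, and fell by 3.17 (adjusted p = 1.5e-09). Acta2, smooth muscle actin, on chromosome 19, had 4747, 4747 and 3868 in ACSS2 KO and 699.7, 746 and 877 in DKO1, and fell by 2.52 (adjusted p = 6.5e-10). Vim, vimentin, had 65875, 64592 and 58635 in ACSS2 KO and 97639.6, 101706 and 126103 in DKO1, a rise of 0.78 ± 0.12 (adjusted p = 0.00011).

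Matrix and integrin genes gave 21 higher and 19 lower of 54, with a median of −0.05 that was 0.11 without DKO1 replicate 4. Timp3, a metalloproteinase inhibitor, had 9154, 9665 and 9772 in ACSS2 KO and 1201, 1238 and 1399 in DKO1, and fell by 2.90 on the log2 scale (adjusted p = 1.1e-10). The laminin chain Lamb1 had 9433, 10174 and 10159.5 in ACSS2 KO and 2693, 2718 and 2264 in DKO1, and fell by 1.96 (adjusted p = 2.4e-09). Col3a1, a fibrillar collagen, had 68.6, 66.9 and 69.7 in ACSS2 KO and 711, 606 and 445 in DKO1, a rise of 3.06 ± 0.14 (adjusted p = 1.9e-09). The integrin Itgb6, which activates TGF-beta, had 699.7, 644 and 686 in ACSS2 KO and 2482, 2349.9 and 1898 in DKO1, a rise of 1.72 ± 0.09 (adjusted p = 6.5e-09). Of 18 YAP targets 9 fell and 3 rose with a median of −0.41, and without DKO1 replicate 4 7 fell and 4 rose with a median of −0.25. With ACSS2 intact, 8 fell and 1 rose in ACLY KO against WT, with a median of −0.41. The YAP targets in DKO1 against ACSS2 KO included Fstl1 at −1.22 ± 0.06 and Cyr61 at 0.56 ± 0.07.

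Autophagy and lysosome genes were mostly higher, with 23 of 39 higher (59.0%) and 4 lower and a median of 0.39 (0.28 without DKO1 replicate 4). With ACSS2 intact, 17 were higher and 5 lower in ACLY KO against WT, with a median of 0.24. Atg12, of the conjugation system, had 831, 837 and 896 in ACSS2 KO and 1726, 1833 and 2132 in DKO1, a rise of 1.14 ± 0.08 (adjusted p = 6e-08). Gabarapl1, an ATG8 family member, had 2796, 2725 and 3026 in ACSS2 KO and 4942, 5207 and 4794 in DKO1, a rise of 0.81 ± 0.06 (adjusted p = 2.9e-07). The protease Ctsb rose by 0.82 ± 0.08 and the galactosidase Glb1 by 0.69 ± 0.07. The acid lipase Lipa, on chromosome 19, had 2320.1, 2244 and 2356 in ACSS2 KO and 1222, 1288 and 1109.9 in DKO1, and fell by 0.94 on the log2 scale (adjusted p = 3.3e-07). Tfeb, a regulator of lysosomal genes, did not pass (−0.30 ± 0.19, adjusted p = 0.2) and fell without DKO1 replicate 4 (−0.59, adjusted p = 0.00044).

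Histone acetyltransferases take acetyl groups from acetyl-CoA, deacetylases remove them from lysines, and bromodomain proteins bind the acetylated lysines. Of 41 such genes, 15 fell (36.6%) and 4 rose, with a median of −0.14, and without DKO1 replicate 4 the counts were 11 and 4 with a median of −0.09. Sirt1, an NAD-dependent deacetylase, had 456, 459 and 473 in ACSS2 KO and 56.7, 62.7 and 79.1 in DKO1, and fell by 2.80 on the log2 scale (adjusted p = 1.1e-09). The mitochondrial desuccinylase Sirt5 had 94.5, 91.2 and 86.4 in ACSS2 KO and 21.6, 24 and 37.5 in DKO1, and fell by 1.71 (adjusted p = 1e-05). The bromodomain reader Brd2 had 10122, 10432 and 9575 in ACSS2 KO and 15591, 14441 and 14829.5 in DKO1, a rise of 0.57 ± 0.07 (adjusted p = 8.9e-06). Ep300, the acetyltransferase p300, had 3648, 4570.4 and 4499 in ACSS2 KO and 5356, 4516 and 1853 in DKO1. Its groups overlapped, and its change of −0.25 ± 0.34 did not pass (adjusted p = 0.56) and was 0.22 without DKO1 replicate 4 (adjusted p = 0.46).

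Other lists had calls in both directions. Of 23 hypoxia targets 6 rose and 8 fell (6 and 6 without DKO1 replicate 4), with Vegfa at −0.96 ± 0.08. Endoplasmic reticulum stress genes gave 3 higher and 5 lower of 20 (1 and 4 without DKO1 replicate 4), with Pdia4 at −0.67 ± 0.06 and Dnajb9 at 0.50 ± 0.10. Gluconeogenesis gave 3 higher and 4 lower of 8, Tat included, with Pck2 at −0.93 ± 0.15. Ketone metabolism gave 2 higher and 3 lower of 6, with the acetoacetate-activating Oxct1 at −0.38 ± 0.07 against 0.65 in ACLY KO against WT. Among cyclin D, CDK inhibitor and p53 target genes, 8 rose and 9 fell of 29 with a median of −0.10, and without DKO1 replicate 4 8 rose and 12 fell with a median of −0.27.

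The largest single changes lay mostly outside these lists. Havcr1, the kidney injury molecule KIM-1, had 7.51, 4.32 and 9.55 in ACSS2 KO and 149, 147 and 165 in DKO1, a rise of 4.31 ± 0.33 (adjusted p = 2.3e-07). The RNA-binding protein gene Nova1 had 6.36, 9.47 and 6.52 in ACSS2 KO and 163, 124 and 168 in DKO1, a rise of 4.18 ± 0.37 (adjusted p = 7.8e-07). Col22a1 rose by 3.86 ± 0.27 and Naaladl2 by 3.90 ± 0.33. Nptxr had the largest fitted rise of the genes named by size, 7.84 ± 1.86 (adjusted p = 0.0031), but its libraries were uneven, with 0, 0 and 413 in ACSS2 KO and 2324, 842 and 2518 in DKO1, so that its fold rests on libraries at 0 and on the constant added. On the other side, Dapk1, a death-associated kinase, had 839, 877 and 937 in ACSS2 KO and 59.9, 61.6 and 58.7 in DKO1, and fell by 3.86 on the log2 scale (adjusted p = 6.7e-10). Scara3 had 569, 535 and 578 in ACSS2 KO and 42.3, 36.2 and 37.1 in DKO1, and fell by 3.83 (adjusted p = 2.1e-10). The laminin chain Lama4 fell by 3.89, Slc9a7 by 4.00 and Tspan13 by 3.93. Orm2, Serpinb9d, Cyp4a12b, Oas1a, H2-Q4 and Gm3776 have near-identical relatives, and how reads shared between copies were counted is not given in the sources used here, so their values are uncertain.

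Some genes had a different direction in the presence of ACSS2. Ogdhl, a relative of the 2-oxoglutarate dehydrogenase, had 319.8, 321 and 327 in ACSS2 KO and 62.7, 37.4 and 64.2 in DKO1, and fell by 2.58 on the log2 scale, but rose from 118 ± 14.2 in WT to 376 ± 22 in ACLY KO (SD, n = 4 each), a difference of −4.24 ± 0.23 (adjusted p = 5.7e-08). Abat, the GABA transaminase, had 112, 132 and 130.4 in ACSS2 KO and 38.8, 40.8 and 30.5 in DKO1, and rose from 25.3 ± 5.41 to 122 ± 17.1 in the other background, a difference of −3.99 ± 0.25 (adjusted p = 2.2e-07). Ephb2, an ephrin receptor, had 695, 677 and 728 in ACSS2 KO and 151, 143 and 146 in DKO1, against 255 ± 23.3 in WT and 650.5 ± 81 in ACLY KO, a difference of −3.59 ± 0.14 (adjusted p = 5.1e-09). Kctd15 had 220.2, 209.9 and 214 in ACSS2 KO and 25.9, 17.3 and 22 in DKO1, and rose by 1.0 in the other background, a difference of −4.27 ± 0.21 (adjusted p = 3e-08). All 4 genes fell in every DKO1 library relative to ACSS2 KO, and in all 4 the ACSS2 KO level was above WT.

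Position in the genome moved with many of these results. The Y chromosome had the highest median, 3.84 over 7 genes. Ddx3y had 317, 338 and 309.6 in ACSS2 KO and 4990.0, 4839 and 4060.1 in DKO1, a rise of 3.84 ± 0.13 (adjusted p = 1.3e-10), against 1633 ± 103 in WT and 356 ± 63.1 in ACLY KO (SD, n = 4 each). Eif2s3y, Uty and Kdm5d rose by 3.85 ± 0.15, 3.86 ± 0.17 and 3.61 ± 0.28. Every Y-linked gene named here was lower in ACLY KO than in WT and higher in DKO1 than in any other group, although DKO1 was derived from ACLY KO cells. The medians of the 7 genes against WT were −2.24 in ACSS2 KO and 1.55 in DKO1.

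On the autosomes, chromosome 19 had the lowest median, −0.52 over 471 genes, with 45 higher and 285 lower (60.5%), and it was −0.38 in ACLY KO against WT and −0.03 in ACSS2 KO against WT. Chromosome 2 had the highest autosomal median, 0.33 over 1020 genes, with 487 higher (47.7%) and 129 lower. Chromosome 14 was at −0.28, chromosome 3 at 0.24 and chromosome 1 at −0.19, where ACSS2 KO against WT was 0.20, −0.22 and 0.18 in that order. These 5 medians kept their sign without DKO1 replicate 4. Chromosome 13, which holds Hmgcs1 and Idi1, was at −0.09, and at −0.41 in ACLY KO against WT. On chromosome 3, 274 of 630 genes were higher (43.5%) and 118 lower (18.7%). The text gives the chromosome of only some named genes. Whether the change of any named gene is separate from the shift of its chromosome was not tested.

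**Figure D5:**
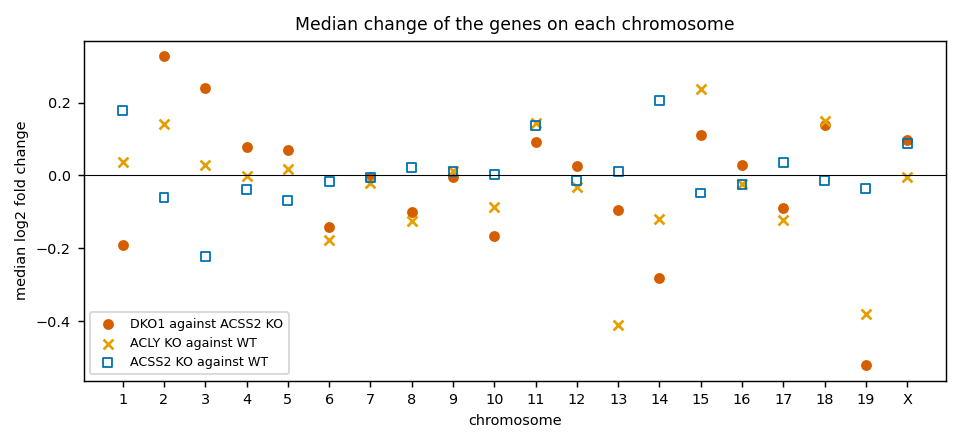
Median log2 fold change of the genes tested on each chromosome for DKO1 against ACSS2 KO (filled), ACLY KO against WT (crosses) and ACSS2 KO against WT (open squares). Chromosome 19 is lowest at −0.52 and chromosome 2 highest at 0.33 in DKO1 against ACSS2 KO; the Y chromosome, at 3.84, is not drawn.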

How the data were processed

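Cells were cultured for 24 h in DMEM with 10% serum. Poly(A) RNA was prepared with a directional kit, read as single ends, and mapped to GRCm38/mm10 with STAR, per the paper's methods and the submitters' processing notes. The authors deposited 1 table of normalized counts, that is, a signal from DESeq2 1.0.1 after division by a normalization factor. How reads were assigned to genes is not given in the sources used here. The values are fractional and whole reads could not be recovered, so raw depth is unknown and no count test was run.

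Of 24972 rows, 26 with symbols turned into dates were dropped. Groups came from the sample labels. Genes with a mean of at least 10 over the 6 DKO1 and ACSS2 KO libraries (12743) were fitted with limma 3.58.1 in R 4.3.3, with an intensity trend, on log2(value + 1), using all 14 libraries with 1 coefficient a genotype and no covariate. The contrasts were DKO1 against ACSS2 KO, ACLY KO against WT and their difference. P-values were two-sided and Benjamini-Hochberg adjusted over all genes tested. The limits for counts over all genes were 1.5 for the size of the log2 fold change and 0.01 for the adjusted p, and a single gene was called at 0.05. The smallest exact permutation p for 3 against 3 libraries is 0.1, so none was used. The fit was tested on simulated data.

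Gene lists were described by counts and medians, with no set test. The members and lists were chosen with earlier results of these data known. Named genes were textbook genes, the 12 largest rises and falls and the 6 largest differences in each direction at a mean of 50 or more and an adjusted p under 0.01 (for rises and falls, also no overlap), up to 5 called members a list with the smallest adjusted p, and Y-linked genes. Some of these are not reported here. Apob, Id1, Id3, Krt8, Krt18, Nsdhl and Tm7sf2 were named after their values were seen. Promoters and gene positions came from RefSeq GRCm38.p6. Alternatives left out each of the 6 libraries, fitted the 6 alone, changed the constant, the filter, the scaling and the limits, added a replicate block, or removed a spline of transcript length. Figures were drawn with matplotlib 3.10.9.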

Additional observations from a re-analysis of the deposited data

Results flagged for a closer look

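Of the 181 genes named, 44 had an effect of ACLY loss that differed between ACSS2-deficient and ACSS2-proficient cells by more than 1.5 on the log2 scale with an adjusted p under 0.01 (limma interaction). The difference was positive for 21 and negative for 23, and no explanation was tested.

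Some of these genes were called at an adjusted p under 0.05 in both backgrounds with opposite directions, with no limit on the size of each change. Among them, the difference was Cpt1c 5.82, Ddx3y 6.05, Eif2s3y 5.93, Idi1 1.54, Kdm5d 6.02 and Uty 5.86 where DKO1 was above ACSS2 KO. It was Abat −3.99, Acsf3 −2.33, Cth −3.16, Ephb2 −3.59, Igf2bp3 −2.79, Kctd15 −4.27, Ogdhl −4.24, Slc7a11 −2.30, Tap1 −2.15 and Vldlr −1.64 where DKO1 was below ACSS2 KO.

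Among the others, the difference was positive, with the log2 value beside each gene, for Apob 3.36, Cdh1 1.68, Col22a1 2.01, Cyp3a13 1.67, Cyp4a12b 1.74, Gja1 3.93, Havcr1 2.61, Hnf4a 1.78, Naaladl2 2.29, Nova1 3.70, Nqo1 2.13, Orm2 2.14, Scd1 2.86, Serpinb9d 2.02 and Tat 3.6. It was negative for Alb −3.11, Bmp2 −2.38, Dapk1 −2.52, Fmo2 −3.42, Lama4 −2.58, Prox1 −3.18, Psmb8 −2.72, Rora −2.15, Scara3 −2.31, Slc9a7 −2.18, Stc2 −2.30, Tspan13 −2.57 and Vnn3 −2.21. Cdh1 and Hnf4a have positive values because they fell further in ACLY KO against WT than in DKO1 against ACSS2 KO, and Gja1 and Scd1 fell only there. Cyp4a12b, Orm2 and Serpinb9d have near-identical relatives, so their values are uncertain. These genes were named in part by their difference, so the number that differed is no estimate of a share.

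Among the 34 WT and ACLY KO groups of 4 libraries whose means are given, 1 held a library far from the other 3, where chance flags about 1 group in 20. Ogdhl was at 139.5 in 1 WT library, above the rest of the group.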

How the results depend on the processing

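The number of genes past the limits in DKO1 against ACSS2 KO was 1490. Leaving out 1 library at a time gave 1424 to 1539 genes for this count, and 501 to 587 for the difference between backgrounds. A value of at least 10 in each of the 6 libraries left 912 (389 higher, 523 lower), since genes low in 1 group are then removed. Limits of 1 and 0.05 gave 2463 (1251 higher), and limits of 2 and 0.01 gave 409 higher. For the difference between backgrounds, 572 became 1243 (438 positive, 805 negative) and 335 (115 positive, 220 negative) under these limits. With the replicate number as a replicate block, 1476 genes (658 higher, 818 lower) and 525 differences (177 positive, 348 negative) passed. The shared numbers 1 and 4 do not establish a pairing, since the deviations of same-numbered libraries correlated at −0.288 and −0.106.

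Of 2882 values of the 181 named genes under an alternative, 2815 kept direction and call, 18 lost the call, 27 gained it and 22 changed direction; the cause was not tested. Those that changed direction belong to genes with no call or, for Pkm, a weak one. Over the fits that leave out 1 library, their log2 changes ranged from −0.53 to 0.21 for Acaca, −0.0094 to 0.26 for Atf4, −0.37 to 0.40 for Cdkn2a, −0.54 to 0.22 for Ep300, −0.30 to 0.056 for H2-K1, −0.057 to 0.21 for Scd1, −0.026 to 0.11 for Slc25a20 and −0.33 to 0.013 for Srebf2. With the length correction and without DKO1 replicate 4, they were 0.21 for Acaca, −0.013 for Atf4, −0.38 for Cdkn2a, 0.21 for Ep300, −0.073 for Scd1, −0.028 for Slc25a20 and 0.015 for Srebf2. Quantile normalization gave −0.025 for Pkm and −0.095 for Scd1, which was −0.0043 with equal library totals and −0.062 with the length correction. Calls lost on leaving out a library included Hnf4a (without ACSS2 KO replicate 1 or 4, or DKO1 replicate 3) and Pkm. Of the list medians, SREBP2 control ranged from −0.15 to 0.0052 on leaving out 1 library, and pyruvate entry and TCA cycle was −0.019 with the length correction and −0.010 with it and without DKO1 replicate 4.

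Raw depth is unknown, so low values carry no counting interval. The 3 libraries of a genotype come from 1 clone, and clone and genotype cannot be told apart.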
